A study of Drosophila melanogaster with 4 samples.

Results

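The transcriptome described here is that of GFP-positive cells sorted from wild-type (WT) Drosophila melanogaster embryos and labelled as embryonic myoblasts of stage 11. It comprises the 2 WT libraries among 4 in the series, chosen by their genotype label. The other libraries are of a line mutant for spalt major, which encodes a zinc finger transcription factor, and they were not used. Per the labels' protocols, adults laid eggs for 3 h at 25 C and the plates were aged for 7 h, so embryos were 7 to 10 h old. Embryos of that age are mostly past stage 11 in the standard timetable of development at that temperature, so the time and the stage label do not coincide exactly. Embryos were picked under a fluorescence microscope by their GFP and dissociated, and GFP-positive cells were sorted for polyA RNA sequencing. The sources used here do not name the GFP reporter, its promoter or the number of embryos pooled. The submitters call the libraries technical replicates, so each n of 2 counts libraries and their spread may be technical.

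Myoblasts of the fly embryo arise from the mesoderm, where the bHLH activator Twist (twi) and its target Snail act first and the MADS box factor Mef2 then drives muscle differentiation. Each larval muscle is seeded by a founder myoblast, which carries a set of identity transcription factors, and grows by fusion with fusion-competent myoblasts. The FGF receptor Heartless (htl) guides mesoderm spreading and later cell fates, and the zinc finger homeodomain factor Zfh1 acts in several mesodermal lineages. These 4 genes served as the markers of the labelled cell type.

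Levels are given as TPM, a share of the library that takes gene length into account, computed from the deposited counts. Each count was divided by the total exonic length of the gene and scaled to a sum of 1000000 per library, after mitochondrial genes and genes with rRNA in their names were left out. In all, 17385 genes remained, with 16318261 counts in WT replicate 1 and 14433614 in WT replicate 2. Mitochondrial genes had taken 27.0% ± 3.19 of the counts in listed genes (SD, n = 2). At this depth, 3 counts of a gene of 1 kb correspond to 0.255 TPM in replicate 1 and 0.292 TPM in replicate 2, which is the limit that a count of 0 allows at that length, for counting error only.

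All 4 markers of the labelled cell type were present in both libraries, each above the median protein-coding gene (5.83 TPM). That bar is not particular to them, since the 124 genes listed below for other tissues had a median of 6.49 TPM. Some of those genes reached the levels of these markers, such as the neural gene CadN (36.0 and 38.4 TPM). Mef2 (FBgn0011656, 2R, 9913496 to 9958858, minus strand, BDGP6) had 79.8 TPM in replicate 1 and 83.6 TPM in replicate 2, which placed it at rank 1046 of 17385 genes. htl (FBgn0010389, 3R, 18045216 to 18052984, minus strand) had 38.1 and 40.6 TPM and rank 2360. zfh1 (FBgn0004606, 3R, 30765926 to 30789202, plus strand) had 30.7 and 31.5 TPM and rank 2989. twi (FBgn0003900, 2R, 22985374 to 23048325, plus strand) had 26.2 and 23.3 TPM and rank 3626. The order Mef2, htl, zfh1, twi was the same in both libraries, and no neighbouring ranges overlapped. The step from htl to zfh1 rests on the division by length, since zfh1 had more counts (2492 and 2243) than htl (1832 and 1708). Part of the twi exons, 12.2% of their length, is shared with asRNA:CR42742.

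A gene is called detected here when it reached 1 TPM in both libraries. Of the 17385 genes, 10160 (58.4%) were detected, and 6085 (35.0%) reached 10 TPM in both. Among the 13950 protein-coding genes the shares were 65.6% and 40.3%, and 1474 of them had no count in either library. The median protein-coding gene had 5.83 TPM, and the median detected one had 15.8 TPM. Detection was lower for ncRNA genes (643 of 2530, 25.4%), pre-miRNA genes (67 of 260, 25.8%) and pseudogenes (84 of 314, 26.8%). snoRNA genes were detected in 200 of 299 cases (66.9%), although some overlap exons of other genes.

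With mitochondrial and rRNA genes left out, TPM was dominated by the translation machinery. The 10 most abundant genes held 12.8% ± 0.0773 of all TPM, the 100 most abundant 61.7% ± 0.278 and the 1000 most abundant 81.9% ± 0.160 (SD, n = 2 each). The 92 genes named as ribosomal proteins of the cytoplasm (RpL and RpS) held 52.5% ± 0.504 (SD, n = 2). They filled 18 of the top 20 places and 77 of the top 100. RpL41 had 16632 and 14111 TPM, the widest gap between libraries of the 18. RpL31 (13692 and 14072 TPM), RpLP2 (12706 and 13108 TPM) and RpL27A (12443 and 12646 TPM) came next among them. RpS14a and RpS14b, near-identical neighbours on X that share fragments, had means of 10921 and 10572 TPM and are uncertain as single genes. The other 12 ribosomal genes in the top 20, from RpL14 to RpS7, had means between 8125 and 11975 TPM.

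Not every ribosomal protein gene was abundant. Of the 92, 81 reached 1000 TPM in both libraries, and the median of the 89 detected ones was 5808 TPM. The 7 genes under 100 TPM in both libraries were RpL37b (7.26 and 4.61 TPM), RpS19b (4.73 and 6.42 TPM), RpS28-like (0.933 and 3.20 TPM), RpS10a (2.11 and 1.45 TPM), RpL22-like (1.38 and 1.42 TPM), RpL10Aa and RpS28a. The last pair had 0 counts in both libraries. Paralogs of these genes were abundant, such as RpL10Ab (5351 and 5249 TPM), RpS28b (4112 and 3910 TPM) and RpS10b (4064 and 4092 TPM).

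The remaining places of the top 20 belonged to eEF1alpha1 and to a small RNA annotation. eEF1alpha1, which delivers aminoacyl-tRNA to the ribosome, had 12740 and 13301 TPM (rank 4). The top rank went to a snoRNA annotation (FBgn0065059, 2R, 20945970 to 20946065, plus strand), with 15896 and 17562 TPM. All 96 bases of this annotation lie in an exon of the muscle actin gene Act57B on the same strand, and the authors' counting assigned a fragment to every feature it touched. Its count therefore cannot be told apart from that of Act57B. The top rank rests on the division by its 96 bases, since its counts (17928 and 17337) were below those of Act57B (52432 and 46746). Why it exceeds Act57B per length was not tested. Long noncoding genes near the top of the list overlap other features as well. asRNA:CR45874 (7252 and 6989 TPM) shares 58.6% of its length with RpS9, and Uhg7 (5342 and 5406 TPM) lies wholly within RpL23A. lncRNA:CR42491 (4242 and 4330 TPM), asRNA:CR31144 (3749 and 3941 TPM) and asRNA:CR43812 (2337 and 2405 TPM) shared between 50.5% and 87.3% of their length with other features. These 5 were the most abundant of the ncRNA genes, and their counts cannot be told apart from those of the features they overlap.

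**Figure D1:**
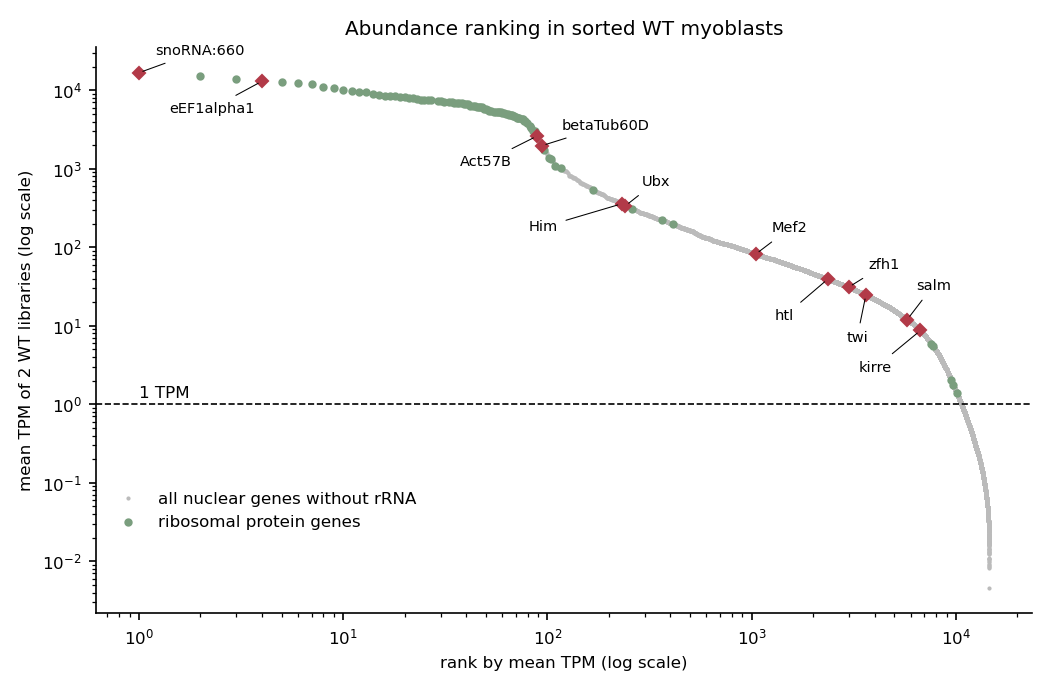
Mean TPM of the 2 WT libraries (vertical axis, log scale) against rank (horizontal axis, log scale) for each gene with at least 1 count. Green circles are the ribosomal protein genes, which fill most ranks up to about 80, diamonds are named genes, and the dashed line is 1 TPM. Act57B and betaTub60D lie directly below the ribosomal plateau, while Mef2, htl, zfh1 and twi lie between ranks 1046 and 3626.

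Among protein-coding genes that are not named RpL or RpS and share at most 20% of their exons, 2 muscle genes stood near the top. Act57B, the main actin of embryonic muscle (FBgn0000044, 2R, 20944021 to 20946431, plus strand), had 2589 and 2637 TPM and rank 89. betaTub60D, the beta tubulin of the mesoderm (FBgn0003888, 2R, 24305881 to 24313099, plus strand), had 1942 and 1999 TPM and rank 94. Around them ranked genes used by most cells. These were alphaTub84B, an alpha tubulin (5114 and 5224 TPM), the translation factors eEF5, eEF2 and eIF4A (means of 3560, 2734 and 2135 TPM), the ribosome-bound scaffold Rack1 (3056 TPM) and the constitutive chaperone Hsc70-4 (2241 and 2313 TPM). The sta gene, which encodes a protein of the small ribosomal subunit under another name, had 7461 and 7443 TPM. Act57B exceeded the cytoplasmic actin gene Act5C by 4.27 and 4.28 times in the libraries, and betaTub60D exceeded the general beta tubulin gene betaTub56D by 1.86 and 1.95 times. These gene pairs were chosen after their values were seen.

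Genes known to act in mesoderm and muscle were measured as 8 lists with 132 different genes. Of these, 125 (94.7%) were detected, against 65.6% of all protein-coding genes, and 98 (74.2%) reached 10 TPM in both libraries, against 40.3%. Their median was 27.4 TPM, against 5.83 TPM for all protein-coding genes. Counts for single lists below are to be read beside these values for all protein-coding genes. The lists hold well-studied genes of the embryo, so a comparison with all genes is not particular to mesoderm. Other gene lists of the same kind, of Hox, signalling, cell cycle and stress genes, had 90 of 96 detected (93.8%) and a median of 22.1 TPM, with htl, pyr and ths held by both sets.

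All 15 mesoderm factors were detected, with a median of 28.2 TPM. The BTB zinc finger repressor gene ttk (107 and 113 TPM) and emc, whose product blocks bHLH factors (96.6 and 106 TPM), were the most abundant, ahead of Mef2. In counts ttk (9534 and 8758) stayed ahead of Mef2 (8611 and 7901), and emc (2325 and 2228) did not. The early mesoderm repressor gene sna had 64.3 and 61.5 TPM, which was 2.46 and 2.65 times the level of twi in the same libraries. Which cells of the pool carried sna cannot be told from bulk RNA, and neuroblast genes such as mira (33.6 and 34.5 TPM) were present too. da, the bHLH partner of Twist, had 44.5 and 46.2 TPM. The forkhead genes slp1 and slp2, neighbours that act in the segmental mesoderm, had 46.9 and 43.1 TPM and 12.4 and 9.78 TPM. The factors of dorsal and visceral mesoderm were lower, apart from the visceral forkhead gene bin (24.9 and 31.5 TPM). bap had 7.11 and 6.91 TPM, tin 4.09 and 4.44 TPM and pnr 3.88 and 3.17 TPM. Poxm, a Pax gene of somatic mesoderm, had 5.11 and 5.12 TPM. In this order, 4 of 14 neighbouring steps had overlapping library ranges (da and slp1, zfh1 and bin, bin and twi, slp2 and opa).

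Genes that set the activity of Mef2 were higher than Mef2 itself in TPM in several cases. Him, which encodes an inhibitor of Mef2 that recruits the corepressor Groucho (FBgn0030900, X, 18209427 to 18210741, plus strand), had 368 and 348 TPM and rank 231. Its level was 4.61 and 4.17 times that of Mef2. This order rests on the division by length, since Him had fewer counts (3974 and 3296) than the longer Mef2 (8611 and 7901). akirin, a nuclear cofactor gene, had 163 and 177 TPM, and how, which encodes an RNA-binding regulator of muscle and tendon, had 156 and 175 TPM. Their ranges overlapped. lmd, the zinc finger gene of fusion-competent myoblasts that acts upstream of Mef2, had 82.9 and 84.9 TPM, close to Mef2. Its counts (3267 and 2929) were also below those of Mef2. gro, the gene of Groucho, had 47.5 and 48.2 TPM. HDAC4 (17.6 and 16.7 TPM), Cf2 (13.1 and 14.3 TPM) and the acetyltransferase gene nej (10.9 and 12.8 TPM) were the lowest of the 8, and all 8 reached 10 TPM in both libraries.

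Among the genes of FGF signalling, the receptor and its adaptor exceeded the ligands. stumps, which encodes the adaptor that couples FGF receptors to Ras signalling, had 29.0 and 30.0 TPM beside the 38.1 and 40.6 TPM of htl. The FGF8-like ligand genes pyr (9.06 and 7.24 TPM) and ths (4.09 and 4.62 TPM) were lower, with htl at 4.20 and 5.61 times pyr and 9.30 and 8.79 times ths. The feedback inhibitor gene sty had 19.3 and 22.2 TPM, and the ERK phosphatase gene Mkp3 had 11.1 and 12 TPM. None of the 5 steps in the order of these 6 genes overlapped between libraries. The order rests in part on the division by length. In counts, stumps (1906 and 1726) exceeded htl (1832 and 1708), and ths (388 and 383) exceeded pyr (342 and 239).

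The muscle identity factors, which mark subsets of founder cells, were detected at lower levels, 21 of 22 genes with a median of 9.45 TPM. nau, the fly MyoD family gene, was the highest (36.3 and 34.0 TPM), and 26.4% of its exonic length is shared with CG10300 on the other strand. The TEAD factor gene sd (24.8 and 29.7 TPM), the T-box gene org-1 (20.1 and 20.8 TPM) and the LIM homeodomain gene tup (19.2 and 19.5 TPM) followed. A further 6 genes, caup, slou, vg, eya, salm and Dr, had means between 11.7 and 13.6 TPM, and each overlapped its neighbour in the order. salm, the gene mutated in the other line of the series, had 12.1 and 11.9 TPM, and its paralog salr had 6.95 and 8.36 TPM. At the low end were the homeodomain genes eve (3.94 and 4.50 TPM), lbl (1.89 and 1.77 TPM) and lbe, which was not detected by the rule (9 and 17 counts, 0.336 and 0.726 TPM). The homeodomain gene Six4 (3.73 and 2.58 TPM) was lower than its cofactor gene eya (11.9 and 13.0 TPM), and vg (12 and 14.0 TPM) was lower than its partner sd. In all, 12 of 21 neighbouring steps in this list overlapped, so most of the middle order is not resolved.

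Of 8 RNA-processing genes linked to muscle, 7 were detected. The splicing factor genes B52 (187 and 191 TPM) and Hrb27C (124 and 134 TPM) were high, and Rbfox1 had 68.7 and 74.4 TPM. mbl, the fly Muscleblind gene, had 17.9 and 19.7 TPM. bru1, which sets fibrillar flight muscle splicing in later stages, had 0.601 and 0.886 TPM and was not detected by the rule.

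**Figure D2:**
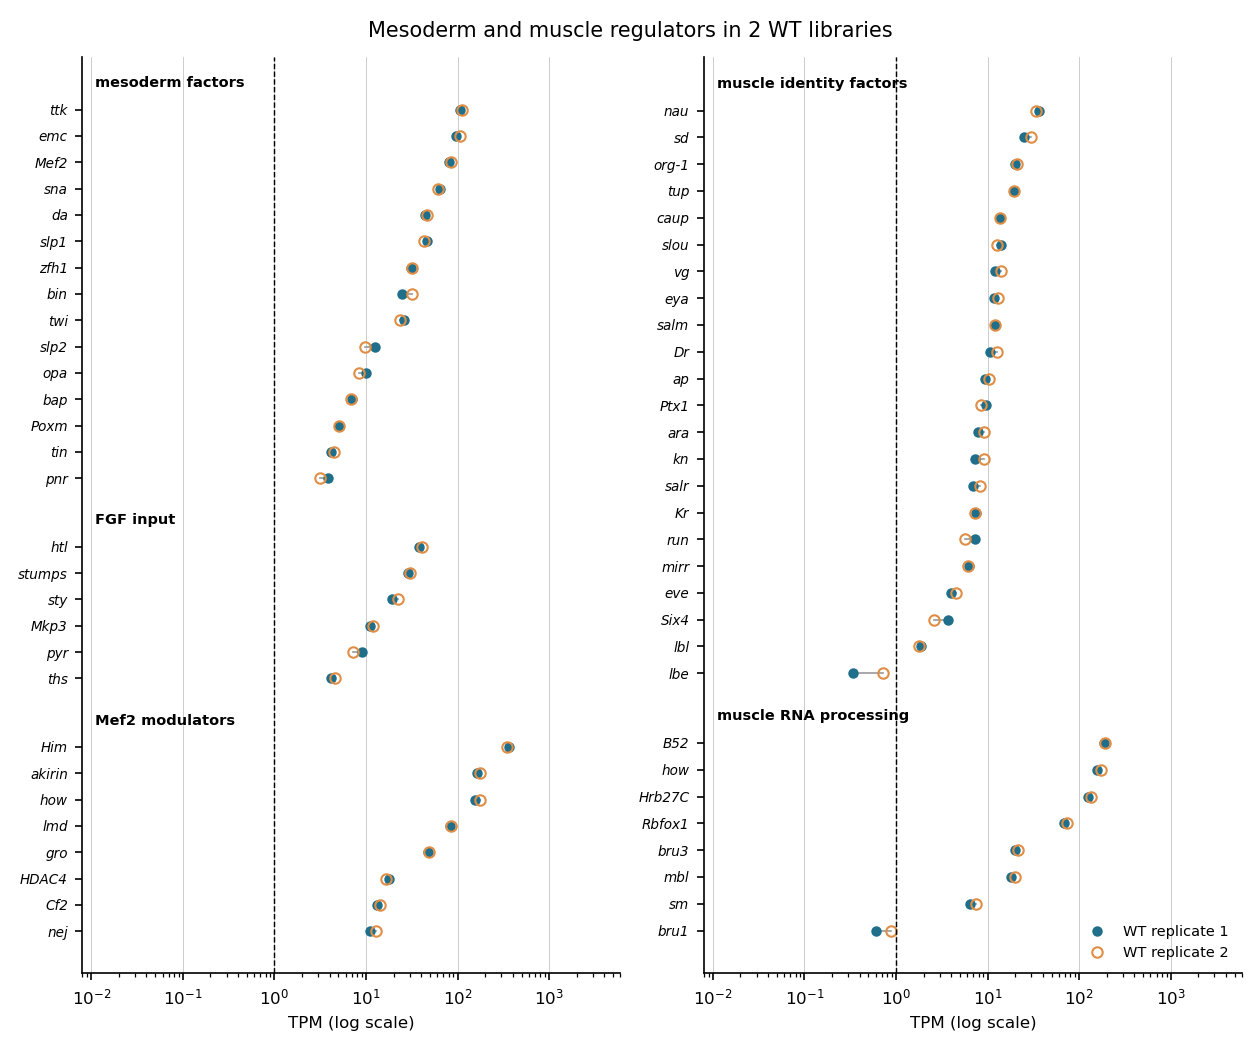
TPM (horizontal axis, log scale) of each regulator in WT replicate 1 (filled circles) and WT replicate 2 (open circles), by list, with genes sorted by their mean. Dashed lines mark 1 TPM. Him leads the Mef2 modulators at 368 and 348 TPM, and lbe and bru1 are the members below 1 TPM in both libraries.

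Receptors of the myoblast types differed in level. sns, which encodes the adhesion receptor of fusion-competent myoblasts, had 107 and 111 TPM (10905 and 9932 counts). Its founder cell partner kirre had 7.78 and 9.65 TPM (718 and 779 counts), so sns was 13.7 and 11.5 times higher per length. The other receptor genes lay between them, with rst at 39.9 and 40.7 TPM and hbs at 16.6 and 18.5 TPM. lmd, the factor of the fusion-competent type, was 10.6 and 8.80 times kirre. Shares of founder and fusion-competent cells cannot be read from these ratios, since in bulk RNA fewer cells of a type and less RNA per cell cannot be told apart.

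All 20 recognition and fusion genes were detected, and 19 reached 10 TPM in both libraries, all but kirre. Among all protein-coding genes these shares were 65.6% and 40.3%. blow, an actin regulator gene of fusion, was the highest (158 and 163 TPM). The GTPase genes Rac1 (132 and 142 TPM) and Rac2 (99.0 and 106 TPM) and the adaptor gene Crk (84.9 and 89.1 TPM) were also among the top 5, with sns. mbc, which encodes the Rac activator, had 53.7 and 57.3 TPM, against 15.2 and 18.4 TPM for its partner Ced-12. Vrp1, the WIP family gene, had 58.2 and 60.2 TPM, above the Arp2/3 activator genes SCAR (33.5 in both libraries) and WASp (23.9 and 24.5 TPM). The founder scaffold gene rols had 27.8 and 26.6 TPM. sing, a transmembrane gene of fusion, had 50.8 and 57.6 TPM, but 59.9% of its exonic length is shared with Axs and its level is uncertain.

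Contractile genes spanned more than 4 orders of magnitude in TPM, but the low end, Zasp67, rests on 1 and 2 counts. Of 32 sarcomere and muscle cytoskeleton genes, 27 were detected and 21 reached 10 TPM in both libraries. After Act57B and betaTub60D came the troponin C genes TpnC73F (332 and 316 TPM) and TpnC47D (311 and 309 TPM) and the regulatory light chain gene Mlc2 (288 and 301 TPM). The troponin T gene up (252 and 244 TPM), the light chain gene Mlc1 (230.5 and 219 TPM), the troponin I gene wupA (202 and 205 TPM), the tropomyosin gene Tm2 (169 and 172 TPM) and the actin gene Act87E (172 and 164 TPM) formed a tier of similar level. The muscle myosin heavy chain gene Mhc was lower, at 103 and 104 TPM, so that Mlc2 exceeded it 2.79 and 2.89 times. In counts, Mhc had more (10990 and 9683) than Mlc2 (7736 and 7066), as its exons are longer.

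Most genes of large scaffold proteins and of the Z-disc were lower per length. The alpha-actinin gene Actn had 96.2 and 94.7 TPM, with 20.7% of its exonic length shared with other genes. The titin-like gene sls had 26.4 and 28.7 TPM, the paramyosin gene Prm 19.1 and 19.4 TPM, and the projectin gene bt 11.3 and 12.5 TPM. Zasp52 (4.12 and 5.17 TPM), Zasp66 (1.73 and 2.77 TPM) and the obscurin gene Unc-89 (1.34 and 1.13 TPM) were near the threshold. The total exonic length counts every exon of a gene, so levels of long genes with many isoforms, such as sls, bt and Zasp52, are understated. In counts the order turned for the longest of them, with 18324 and 17398 for sls and 14586 and 13472 for the nesprin gene Msp300 (17.8 and 18.8 TPM), above the counts of Mhc and Mlc2.

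The 5 members under 1 TPM in at least 1 library include genes known from adult flight muscle. Act88F, the flight muscle actin gene, had 0.747 and 1.28 TPM, and the flight muscle troponin C gene TpnC4 had 0.702 and 1.15 TPM. The myofilin gene Mf had 0.675 and 0.275 TPM. fln, the flightin gene, had 2 and 3 counts (0.131 and 0.224 TPM), and Zasp67 had 1 and 2 counts (0.0262 and 0.0599 TPM).

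Of the adhesion and matrix genes, 22 of 22 were detected, against 65.6% of all protein-coding genes. All 22 reached 10 TPM in both libraries, against 40.3%. The laminin chain genes LanB1 (291 and 297 TPM), LanB2 (287 and 289 TPM) and LanA (234 and 236 TPM) were the highest, and laminin is a trimer of these chains. LanB1 stood at 1.24 and 1.26 times LanA and LanB2 at 1.23 times in each library. Without division by length this order turned, with count ratios of 0.668 and 0.676 for LanB1 and 0.620 in each library for LanB2, as LanA is the longest. The alternative alpha chain gene wb had 11.8 and 12.1 TPM. The collagen IV genes Col4a1 (22.4 and 23.6 TPM) and vkg (14.0 and 15.3 TPM) were far below the laminins.

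Tig, which encodes an integrin ligand of muscle, had 130.1 and 132 TPM. Which cells of the pool carried the RNA of Tig, the laminins and collagen IV was not tested. The beta integrin gene mys (109 and 119 TPM) exceeded the alpha genes if (30.4 and 32.1 TPM), whose product acts in muscle, and mew (17.4 and 21.1 TPM), whose product acts in tendon cells. The intracellular partners stck, parvin, Vinc, rhea (talin), Ilk, Pax and Fit1 had means between 35.0 and 72.6 TPM. kon and Grip, which act together in myotube targeting, had 85.0 and 87.9 TPM and 77.0 and 71.9 TPM. Of the guidance receptors, robo2 had 52.4 and 59.6 TPM with 41.0% of its exonic length shared, drl 38.5 and 46.5 TPM, and robo1 36.1 and 37.9 TPM.

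**Figure D3:**
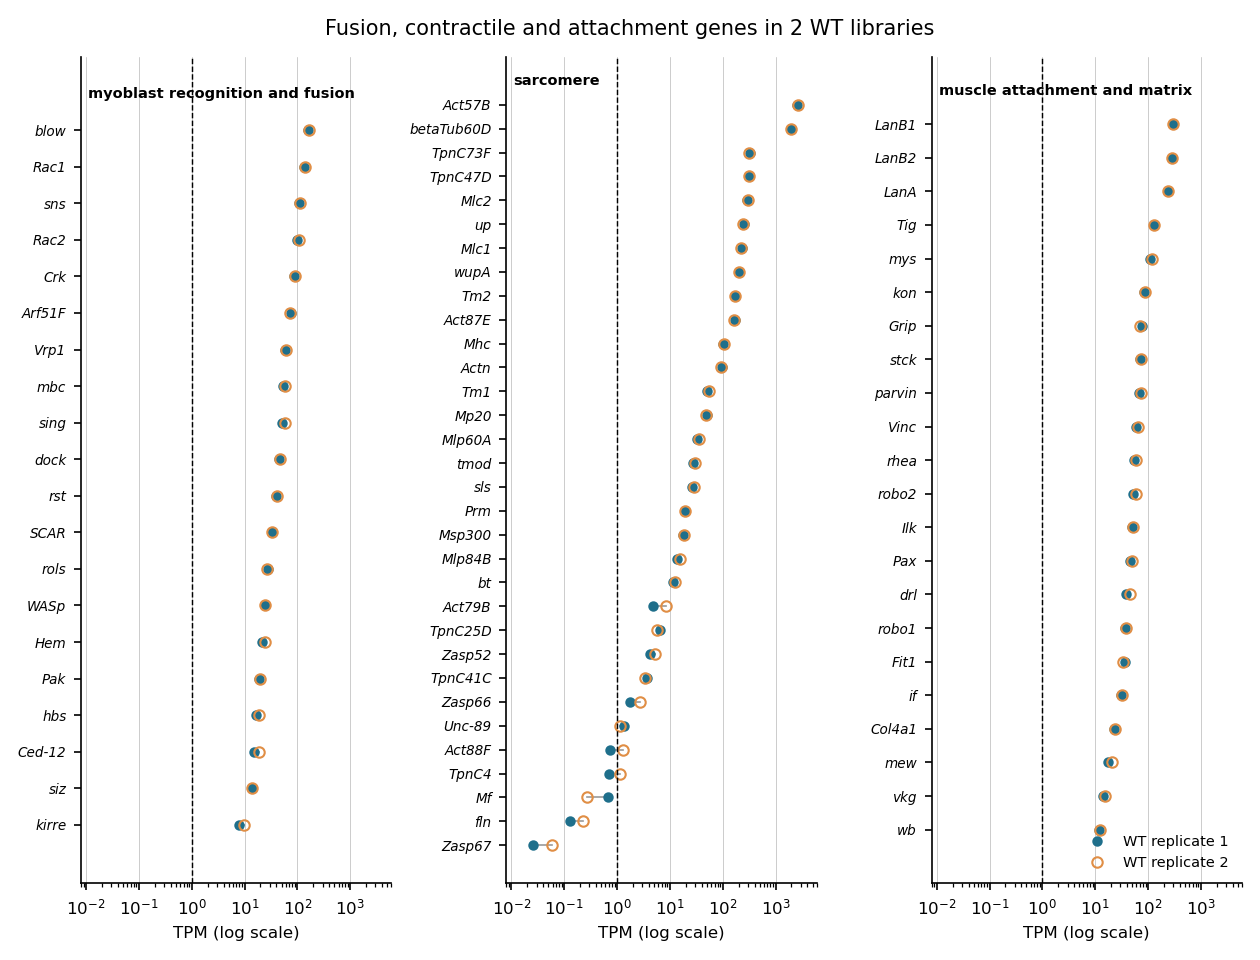
TPM (horizontal axis, log scale) of fusion, sarcomere and attachment genes in WT replicate 1 (filled circles) and WT replicate 2 (open circles), sorted by their mean within each list. Dashed lines mark 1 TPM. The sarcomere list runs from Act57B (2589 and 2637 TPM) down to Zasp67 (0.0262 and 0.0599 TPM), while the fusion and attachment lists hold no member below 1 TPM.

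Genes of other mesodermal derivatives were present as well. The visceral muscle list shares bin, and the heart list tin and pnr, with the mesoderm factors. In the visceral muscle list, 6 of 7 genes were detected. The adhesion gene Fas3, which epithelia also express, had 147 and 161 TPM, and the bHLH genes Hand and HLH54F had 79.1 and 76.7 TPM and 51.3 and 49.1 TPM. The receptor gene Alk had 2.14 and 2.12 TPM, and its ligand gene jeb was not detected (0.64 and 0.60 TPM). In the heart list, 9 of 11 genes were detected with a median of 5.08 TPM. Below Hand stood the nuclear receptor gene svp (15.8 and 18.1 TPM), the T-box gene Doc1 (7.2 and 6.4 TPM) and the pericardial matrix gene prc (5.86 and 7.59 TPM). H15 (0.519 and 0.80 TPM) and Sur (1.27 and 0.881 TPM) did not reach the threshold in both libraries.

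Markers of tissues outside the mesoderm, together with blood cell and fat body genes, were also widely detected. Of 124 such genes in 12 lists, 105 (84.7%) were detected, against 65.6% of all protein-coding genes, and 45 (36.3%) reached 10 TPM in both libraries, against 40.3%. Their median was 6.49 TPM, against 5.83 TPM for all protein-coding genes and 27.4 TPM for the mesoderm and muscle genes. The last 2 sets of lists differ in make-up, since the mesoderm and muscle lists also hold actin regulators, RNA-processing genes and matrix genes. Within them, the muscle identity factors had a median of 9.45 TPM and the mesoderm factors 28.2 TPM. The difference between the medians is therefore not a measure of enrichment. The sets are not disjoint, since tup of the amnioserosa list is also among the muscle identity factors, and Doc1, Doc2 and Doc3 of that list are also in the heart list. The part of other tissues in the other levels was not tested, and levels in the embryo outside the sorted cells were not analysed here.

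Neural genes came to 21 of 24 detected, with sums of 263 and 276 TPM. The cadherin gene CadN (36.0 and 38.4 TPM), the zinc finger gene nerfin-1 (35.6 and 33.5 TPM), the neuroblast adaptor gene mira (33.6 and 34.5 TPM) and the pan-neuronal gene elav (23.4 and 26.1 TPM, with 34.2% of its exonic length shared) were the highest. The neuroblast gene dpn had 23.7 and 25.6 TPM, but 59.3% of its exonic length is shared with an antisense gene. The proneural genes ac (0 and 5 counts) and sc (0.592 and 1.01 TPM) and the synaptotagmin gene Syt1 (1.05 and 0.852 TPM) were not detected by the rule. Of 7 glial genes, 6 were detected, led by nrv2 (77.6 and 81.5 TPM), and the glial master gene repo had 6.34 and 7.04 TPM.

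Tracheal genes were detected in 11 of 11 cases, with the highest sums of the 12 lists, 373 and 390 TPM. Most of it came from the chitin deacetylase genes verm (FBgn0261341, 200.0 and 211 TPM) and serp (75.4 and 75.1 TPM). The defining tracheal genes trh (4.83 and 5.02 TPM) and btl (6.11 and 4.95 TPM) were far lower. In epidermis, 13 of 15 genes were detected, with sums of 313 and 319 TPM. The septate junction genes cora (101 and 102 TPM) and Nrx-IV (46.9 and 44.8 TPM), the E-cadherin gene shg (40.7 and 45.6 TPM) and the apical polarity gene crb (29.1 and 30.2 TPM) led the list. The cuticle pigment genes y (1.17 and 0.763 TPM) and ple (1.07 and 0.664 TPM) were not detected by the rule.

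Blood cell genes gave 12 of 16 detected, with sums of 163 TPM in each library. The highest were the engulfment receptor gene drpr (39.2 and 36.7 TPM), the PDGF and VEGF receptor gene Pvr (25.6 and 25.7 TPM), the matrix gene Ppn (23.8 in both) and the GATA factor gene srp (17.9 and 20.2 TPM). Genes of differentiated blood cells were uneven. The scavenger receptor gene crq (13.0 and 12.9 TPM), the crystal cell prophenoloxidase genes PPO2 (7.84 and 7.85 TPM) and PPO1 (2.4 and 3.54 TPM), the peroxidasin gene Pxn (7.02 and 7.92 TPM) and the scavenger receptor gene Sr-CI (3.13 and 2.78 TPM) were detected. The 4 undetected members were near 0. Hml had 16 and 3 counts, NimC1 7 and 3, the crystal cell factor gene lz 8 and 0, and eater 0 in both, which allows up to 0.0774 and 0.0884 TPM. Fat body genes were detected in 2 of 6 cases, the lipid transfer gene Mtp (65.3 and 64.2 TPM) and apolpp (5.98 and 5.69 TPM). The larval storage protein gene Lsp1alpha and the receptor gene Fbp1 had at most 3 counts in a library.

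The other lists were lower or smaller. Salivary gland genes were detected in 8 of 8 cases, with the secretion factor gene CrebA (22.2 and 24.2 TPM), sano (17.0 and 18.3 TPM) and the gland-specific bHLH gene sage (13.5 and 12.7 TPM) at the top. Gut and endoderm genes were detected in 10 of 11 cases, led by bowl (34.1 and 32.6 TPM), drm and lin, while the endoderm factor gene GATAe had 2.90 and 1.61 TPM. Tendon genes were detected in 6 of 6 cases, with tx (57.1 and 53.6 TPM) highest and the tendon master gene sr at 1.06 and 1.51 TPM. In the amnioserosa list 6 of 7 were detected, led by Ance (40.4 and 40.8 TPM). In the oenocyte list 3 of 4 were detected, led by the cytochrome P450 gene Cyp4g1 (24.5 and 20.6 TPM).

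Germ cell and maternal genes gave 7 of 9 detected. gcl (32.2 and 33.4 TPM) and tud (21.1 and 23.7 TPM) were the highest. The germ line helicase gene vas (2.09 and 3.70 TPM) and nos (2.75 and 2.44 TPM) were near the threshold. The maternal patterning gene bcd had 3 and 5 counts, and osk had 0 in both libraries, which allows up to 0.0890 and 0.102 TPM.

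**Figure D4:**
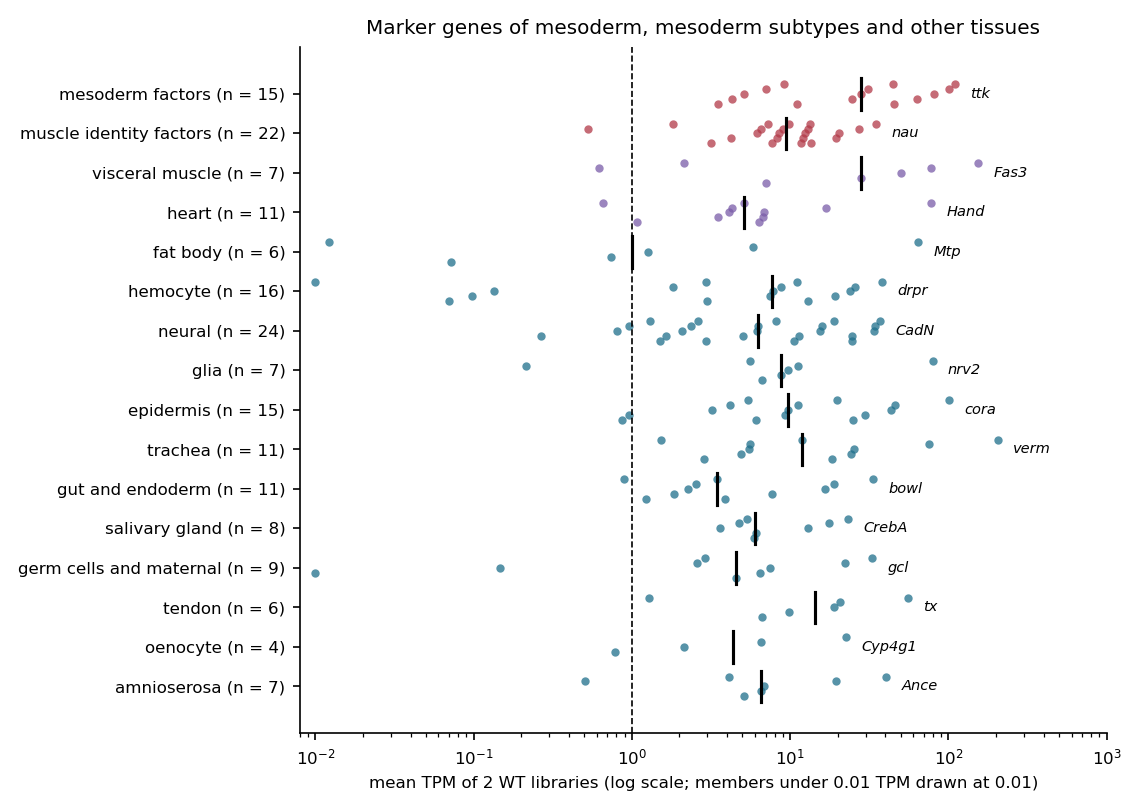
Mean TPM of the 2 WT libraries (horizontal axis, log scale) for each member of 16 marker lists, with the median of a list as a black bar and its highest member named. Red points are mesoderm and muscle identity factors, purple points other mesoderm, and blue points other tissues; the dashed line is 1 TPM. The medians run from 1.0 TPM for fat body to 28.2 TPM for mesoderm factors and visceral muscle, and eater and osk, at 0, are drawn at 0.01. The value of 28.2 TPM is that of bin, which the mesoderm factor and visceral muscle lists both hold.

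The Hox genes, which give segments their identity, were uneven. Ubx, which acts in the posterior thorax and anterior abdomen, had 330.2 and 345 TPM (rank 241), 38.6 and 41.7 times the level of Antp (8.55 and 8.27 TPM). In counts the ratios were 20.8 and 22.4, as the exons of Antp are longer. Of the Antp exonic length, 50.1% is shared with CG46458. abd-A had 26.5 TPM in each library and Abd-B 10.3 and 11.1 TPM. The anterior Hox genes were lower than Abd-B, with Scr at 8.39 and 7.5 TPM, Dfd at 3.95 and 3.27 TPM, pb at 1.39 and 1.28 TPM and lab at 0.615 and 1.18 TPM. The library ranges of Scr and Antp overlapped. The Hox cofactor genes exd (68.8 and 81.3 TPM) and hth (35.6 and 39.9 TPM) and the trunk gene tsh (49.0 and 53.7 TPM) were well above the anterior Hox genes. Of the 12 genes, 11 were detected.

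Genes of signal receptors and ligands were listed separately, and the difference between the lists was not tested. Of 20 receptor genes, 19 were detected and 15 reached 10 TPM in both libraries, with a median of 25.1 TPM. The Wnt receptor gene fz2 (69.3 and 71.3 TPM), the Hedgehog receptor gene ptc (60.5 and 62.7 TPM), and the BMP receptor genes put (51.3 and 53.0 TPM) and sax (51.9 and 49.0 TPM) were the highest. Of 22 ligand genes, 18 were detected and 6 reached 10 TPM in both libraries, with a median of 8.09 TPM. Among all protein-coding genes, 65.6% were detected and 40.3% reached 10 TPM in both libraries. The BMP gene gbb (108 and 110.4 TPM), the EGF genes spi (89.1 and 85.0 TPM) and Krn (55.1 and 49.9 TPM) and Wnt4 (58.2 and 62.7 TPM) were the highest ligand genes. The ectodermal signals wg (6.68 and 6.80 TPM), hh (7.22 and 8.78 TPM) and dpp (8.65 and 8.97 TPM) were lower.

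All 23 cell cycle genes were detected, against 65.6% of all protein-coding genes. The highest were the APC activator gene fzr (99.6 and 106 TPM) and the CDK inhibitor gene dap (89.3 and 88.4 TPM), both known from cell cycle exit. Rbf, the Retinoblastoma family gene that also restrains the cycle, was in the middle of the list (24.4 and 21.8 TPM). stg, whose product triggers mitosis, had 56.6 and 61.2 TPM, and the mitotic cyclin genes CycA and CycB had 39.7 and 41.8 TPM and 29.2 and 27.6 TPM. The S-phase gene CycE was the lowest of the list (3.37 and 2.33 TPM), and the replicative helicase genes Mcm2 (6.49 and 4.73 TPM) and Mcm5 (7.98 and 6.90 TPM) were also low, beside PCNA at 39.1 and 39.4 TPM.

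Heat shock genes were abundant in the dissociated and sorted cells. All 19 genes of the heat shock and stress list reached 10 TPM in both libraries, against 40.3% of all protein-coding genes. Together they held 0.999% ± 0.00102 of all TPM (SD, n = 2). The list median of 577 TPM was the level of Hsp70Bbb, an Hsp70 copy. Besides Hsc70-4, the HSP90 gene Hsp83 had 1091 and 1085 TPM, and the small heat shock genes Hsp23 and Hsp27 had 963 and 899.9 TPM and 883 and 868 TPM. Among the stress-inducible Hsp70 copies, 5 had means between 577 and 723 TPM, and Hsp70Ba had 36.9 and 40.2 TPM. These copies share fragments, which were counted for every copy, so their sum counts some fragments more than once. The share and the median of the list include such fragments. The stress and injury genes Gadd45 (133 and 141 TPM), Jra (57.4 and 52 TPM) and puc (18.4 and 22.1 TPM) were lower. Whether dissociation and sorting changed these levels was not tested.

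The libraries differed little for most protein-coding genes. At 10 to 100 TPM, the median absolute log2 ratio of the libraries was 0.0999 over 5078 genes, against 0.0525 from counting error alone, a factor of 1.9. It was 0.342 at 1 to 5 TPM (2198 genes, against 0.192 from counting) and 0.0503 at 100 to 1000 TPM (637 genes, against 0.0229). So a typical gene at 10 to 100 TPM differed 1.07-fold between libraries, and the observed spread exceeded counting error in each of these ranges. Of 6331 genes with at least 10 TPM on average and counts in both libraries, 43 (0.679%) differed 2-fold or more. Of those, 35 were snoRNA, pre-miRNA or snRNA genes of at most 159 bases, 6 were ncRNA genes and 2 were protein-coding. None of the 352 listed genes was among them.

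CG12861 was the protein-coding gene that differed most at this level. It lies on 2R (FBgn0033953, 14664246 to 14665356, minus strand), shares no exon with another feature and had 419 counts in replicate 1 and 66 in replicate 2 (32.1 and 5.78 TPM). The other coding gene was Trs33, which encodes a trafficking complex subunit, with 129 and 48 counts (18.8 and 8.01 TPM). The remaining 9 of the 10 most divergent genes were mir-276a (44 and 4 counts), mir-1010 (3 and 13 counts) and 7 snoRNA genes with at most 57 counts in a library.

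**Figure D5:**
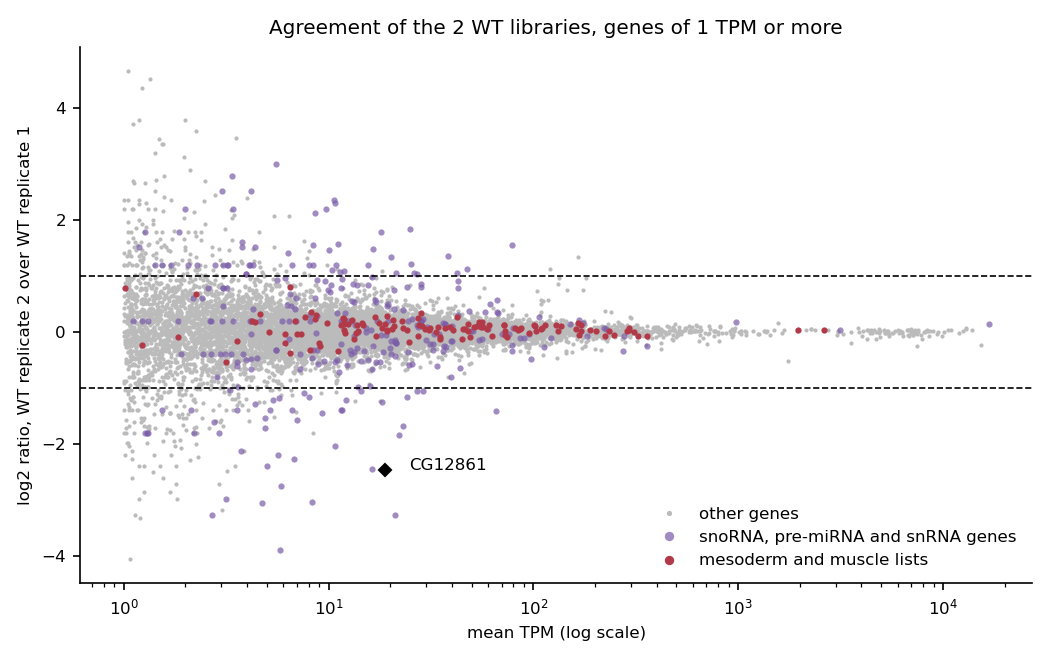
Log2 ratio of TPM in WT replicate 2 over WT replicate 1 (vertical axis) against mean TPM (horizontal axis, log scale) for genes with at least 1 TPM on average. Red points are mesoderm and muscle genes, purple points snoRNA, pre-miRNA and snRNA genes, grey points all others, and dashed lines mark a 2-fold difference. The spread narrows with abundance, and CG12861 (32.1 TPM in replicate 1 and 5.78 TPM in replicate 2) stands apart.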

How the data were processed

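Samples were grouped by genotype label, and the 2 WT libraries were described without a comparison between groups or a test. The submitters' processing notes name cutadapt 2.4, STAR 2.5.4b and build BDGP6. The authors deposited raw counts of fragments per gene, which the file headers trace to featureCounts 2.0.1 and Ensembl release 104 (BDGP6.32). By the settings in those headers, a fragment that mapped to several places or touched several features counted for each of them, strand was ignored and an overlap of 10 bases was required. The series table lists 17518 genes, and its counts and lengths equal those of the per-library files for all 17518. From it, 16 mitochondrial genes and 117 other genes with rRNA in the name were left out. The 2 columns of the mutant line were not used. The computation (pandas 2.3.3 and numpy 2.4.6 in Python 3.11.15) was tested on simulated data. TPM was the count over the total exonic length, scaled to 1000000 per library, so levels compare genes within the WT pool and are not amounts per cell. Shared exonic length was taken over all features of the per-library files, ignoring strand. The 27 gene lists (371 entries, 352 genes) and the named genes were chosen with earlier results of these data known. Named were the 20 most abundant genes, the 4 markers, the highest members of each list and those under 1 TPM, the top 5 ncRNA genes and the 10 genes that differed most between libraries. Other genes and the ratios were chosen after their values were seen. Alternatives changed the threshold, the length division, the genes in the total and the libraries.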

Additional observations from a re-analysis of the deposited data

Results flagged for a closer look

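Features outside the gene table, which the levels above do not use, took 6.0% of all counts in the WT libraries on average (5.93% in replicate 1 and 6.08% in replicate 2). They are 6052 transposon insertions and other annotations without a gene name, of which 1303 had at least 10 counts in both libraries, and 312 other gene IDs, of which 15 did. A fragment that matches several insertions was counted for each of them, so these counts are not numbers of fragments. They were looked at because a signal stood above the limit that a count of 0 allows in data outside the main description.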

How the results depend on the processing

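Detection changed by less than 1.5 times under each alternative. The 10160 detected genes became 7688 at 5 TPM and 11027 at 0.5 TPM, and the 105 detected genes of other tissues became 72 and 113. The 125 mesoderm and muscle genes ranged from 114 to 128 over all alternatives. Without division by length, the top 100 genes held 42.9% of the total in place of 61.7%, the ribosomal protein median was 4107 CPM, and 5 of the 20 most abundant genes stayed among the top 20, so the ranking rests on that division. With mitochondrial and rRNA genes kept, the top 100 held 71.1% and the ribosomal median was 4271 TPM. With protein-coding genes alone these values were 63.4% and 6257 TPM, and without genes that share over 50% of their exonic length, 63.7% and 6343 TPM. Without either WT library in turn, the share of the top 100 was 61.5% to 61.9%, the ribosomal median 5755 to 5764 TPM, the detected genes 10628 to 10660, and the genes kept in the top 20 were 19 to 20. No paired analysis was possible because the description uses WT libraries alone and comes from no test. Libraries described as technical replicates give no spread between separate sorts, and depth limits genes near or below 1 TPM.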

Other observations

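Chromosome 4 had the highest share of detected protein-coding genes, 75 of 80 (93.8%), against 63.8% to 67.7% on 2L, 2R, 3L, 3R and X. The median level of detected genes was 22.7 TPM on chromosome 4 and 15.3 to 16.0 TPM on the other arms. Among 23 protein-coding genes on Y, 1 was detected, FDY (128 and 87 counts, 9.75 and 7.57 TPM). FDY is known as a Y-linked copy of an autosomal segment, and fragments that match both places were counted for both.

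The X-linked noncoding gene lncRNA:roX1, part of the male dosage compensation complex, had 132 and 140.3 TPM, against 10.8 and 13.6 TPM for lncRNA:roX2. Sxl, which acts in female development, had 38.7 and 40.7 TPM.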
